A study of Danio rerio with 21 samples.

Results

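The cells described here are zebrafish cells that carried RNA of il22 or of an il17a/f gene, the signature cytokines of type 3 lymphocytes, and no UMI of a few genes that mark type 2 cells, regulatory T cells, neutrophils or macrophages, with little haemoglobin. They were chosen by UMIs, the unique molecular identifiers that count RNA molecules. A chosen cell had at least 500 UMIs, at most 20% mitochondrial UMIs, at least 1 UMI of il22 or of an il17a/f gene, no UMI of il4, il13, foxp3a, mpx or mfap4, and less than 5% haemoglobin UMIs. The rule was met by 1183 of 200571 kept cells (0.590%), of which 144 of 28462 were larval, 180 of 50805 came from crispants and 859 of 121304 from adult tissues. Of the 1183 cells, 1050 also had at least 2 UMIs in sum of the 8 lymphocyte genes lck, zap70, itk, cd247, cd247l, il2rb, sla2 and runx3. These 1050 are called il22/il17 lymphocytes below, and the other 133 are described apart.

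Type 3 lymphocytes include T helper 17 cells, gamma delta T cells and group 3 innate lymphoid cells. In mammals they depend on the transcription factor RORγt, whose zebrafish counterpart is rorc, respond to interleukin 23 through its receptor, and release interleukins 17 and 22, which act on epithelium and draw in neutrophils. They are best known from barrier tissues such as the gut.

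Blood stem and progenitor cells (HSPCs) were given a heritable mCherry label, and their labelled descendants were sorted and profiled by single-cell RNA sequencing. Labelling was done at 1 day post fertilization (dpf; early), 2 dpf (mid) or 3 dpf (late). The larval set had 9 libraries from whole larvae, 1 for each label at each of 3 times, namely the day that followed labelling, 6 dpf and 10 dpf. Crispants gave 4 libraries at 8 dpf, all early-labelled, from rag1 and slc24a5 crispants, each given 25 µM R848 (resiquimod, an agonist of Toll-like receptors) at 6 dpf or left untreated. Crispants are mosaic for their mutation, rag1 encodes a recombinase needed for antigen receptors, and slc24a5, a pigmentation gene, served as the control target. The adult set had 8 libraries at 4 months of age, from intestine, thymus, kidney marrow and the tessellated lymphoid network (TLN), with the early or the late label. Each of the 21 groups was 1 library, so cells are counted within a library, and no spread between replicates of a group exists.

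Total UMIs per library ranged from 8303823 to 150042529. Over all kept cells, rag1 RNA stood at 1.75 and 2.98 CPM (UMIs of a gene per 1000000 UMIs of the cells summed) in R848-treated and untreated rag1 crispants, against 4.41 and 7.23 CPM in R848-treated and untreated slc24a5 crispants. Over the 70 pairs of libraries within a set, no pair shared more than 0.986% of the smaller one's kept barcodes, and no barcode marked a chosen cell in both libraries. The barcodes of 32 of the 1183 chosen cells recurred on a kept cell of another library that was not chosen, 24 of them from the early intestine. In cells that should lack the cytokines, a UMI of il22 or il17a/f was seen in 0 of 2457 larval, 0.0489% of crispant and 0.0735% of adult erythroid cells, defined by at least 50% haemoglobin UMIs. Among cells with at least 3 mpx UMIs, it was seen in 0 of 1357 larval, 0.149% of crispant and 0.258% of adult cells. Among cells with at least 3 mfap4 UMIs, it was seen in 1.28%, 0.544% and 1.39% of larval, crispant and adult cells.

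The label of the chosen cells was first held against rorc, which the rule did not use. In larvae rorc RNA was found in 78 of 121 il22/il17 lymphocytes (64.5%), against 13.6% of the 4216 other lymphocytes, which passed the same lymphocyte gate without a cytokine UMI of this kind. Both larval shares pool libraries of unlike label and age. The early-labelled 10 dpf library gave 77 of the 121 and 1239 of the 4216 cells. In crispants rorc was found in 71 of 122 (58.2%), against 20.7% of other lymphocytes. In the adult intestine it was found in 372 of 781 (47.6%), against 8.33% of other lymphocytes. The intestinal il22/il17 lymphocytes were also read deeper, with median UMIs of 7262 (early) and 9628 (late), against 3668 and 4385. Levels in CPM are given below. In erythroid cells rorc was found in 0.163% to 0.342%, taken over all libraries of a set. Among cells with at least 3 mpx UMIs it was found in 0.576% to 1.42%. Among cells with at least 3 mfap4 UMIs it was found in 0.319% of larval, 3.55% of crispant and 3.17% of adult cells. The type 2 transcription factor gata3 gave another picture in the adult intestine than in the whole larvae and crispants. Age, tissue and software version all differ there and cannot be told apart. It was found in 6 of 121 larval (4.96%) and 7 of 122 crispant il22/il17 lymphocytes (5.74%), but in 425 of 781 (54.4%) from the adult intestine, where other lymphocytes had it in 2.81% and il4 or il13 cells in 49.5%. The larval and crispant cells thus carried rorc and little gata3, while 311 of the 781 intestinal cells had gata3 and no rorc UMI. The label therefore goes against part of the adult data, and the intestinal cells are described below by their leading genes.

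The il22/il17 lymphocytes were a small and unevenly spread share of the labelled lymphocytes. With the early label they made up 17 of 742 lymphocytes at 6 dpf (2.29%, exact 95% interval 1.34 to 3.64) and 77 of 1316 at 10 dpf (5.85%, 4.64 to 7.26). With the mid label they made up 5 of 712 at 6 dpf (0.702%, 0.228 to 1.63) and 19 of 578 at 10 dpf (3.29%, 1.99 to 5.09). With the late label they made up 2 of 404 at 6 dpf (0.495%, 0.0600 to 1.78) and 0 of 389 at 10 dpf, which allows a share of up to 0.771%. At both ages the early label held the highest share. On the day that followed labelling 1 such lymphocyte was found in the 3 libraries together, with the late label at 4 dpf. It stood beside 54 other lymphocytes (1.82%, 0.0460 to 9.72). The early 2 dpf and mid 3 dpf libraries held only 71 and 70 lymphocytes, which allows shares of up to 4.23% and 4.29%. All intervals cover counting error only.

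Early minus late label was 1.80 points at 6 dpf (0.200 to 3.22) and 5.85 points at 10 dpf (4.32 to 7.26), and early minus mid was 1.59 points (0.260 to 3.02) and 2.56 points (0.398 to 4.48). Each rests on 1 library a side. Cells of at least 1000 UMIs were also thinned to 1000 UMIs each. The rule and gate were then applied anew to the thinned counts. A cell left out at full depth for il4, il13, foxp3a, mpx, mfap4 or haemoglobin could thus enter. At 10 dpf 7 of 472 early-labelled (1.48%), 4 of 203 mid-labelled (1.97%) and 0 of 87 late-labelled lymphocytes were then chosen. Early minus mid thus turned to -0.487 points. At 6 dpf 1 of 330 early-labelled and 1 of 52 late-labelled lymphocytes were chosen, and early minus late turned to -1.62 points. At that depth the larval shares are close to the level of single cells. With at least 2 cytokine UMIs a cell, early minus late at 6 dpf was 0.448 points (-0.952 to 1.53), early minus mid was 0.522 points at 6 dpf (-0.460 to 1.57) and 1.43 points at 10 dpf (-0.133 to 2.73), so these intervals included 0. Early minus late at 10 dpf was then 2.81 points (1.56 to 3.85). All late larval libraries, and no other larval ones, were counted with Cell Ranger 7.0.1, so software version and late label cannot be told apart.

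In crispants the share was 22 of 1211 lymphocytes in R848-treated rag1 crispants (1.82%, 1.14 to 2.74), against 33 of 943 in untreated ones (3.50%, 2.42 to 4.88). In slc24a5 crispants it was 32 of 1957 with R848 (1.64%, 1.12 to 2.30), against 35 of 1673 untreated (2.09%, 1.46 to 2.90). R848 minus untreated was -1.68 points in rag1 (-3.22 to -0.265) and -0.457 points in slc24a5 crispants (-1.41 to 0.460), and rag1 minus slc24a5 was 1.41 points untreated (0.0612 to 2.92) and 0.182 points with R848 (-0.766 to 1.24). The untreated difference between genotypes was 1.18 points in cells with at least 2000 UMIs (-0.287 to 2.82), 1.37 with a gate of 4 UMIs (-0.333 to 3.26), 0.329 after thinning (-0.823 to 1.94) and 0.151 over all kept cells (-0.0401 to 0.361), each with an interval that included 0. After thinning to 1000 UMIs, R848 minus untreated was 0.520 points in rag1 (-1.23 to 2.05) and 0.393 points in slc24a5 crispants (-0.628 to 1.27). These rest on 9 against 4 and 13 against 5 cells, and both intervals included 0. At full depth mfap4 left out 24 cytokine cells in treated and 4 in untreated slc24a5 crispants, and 11 and 0 in rag1 crispants. Such cells could enter after thinning, and their part was not tested. At full depth, median UMIs of il22/il17 lymphocytes were 5144 in treated and 11184 in untreated rag1 crispants, and 3395 in treated and 9196 in untreated slc24a5 crispants. In rag1 crispants the difference was -1.75 points with at least 2000 UMIs (-3.38 to -0.209) and -1.46 with at least 2 cytokine UMIs (-2.66 to -0.421). Over all kept cells it was -0.312 points (-0.514 to -0.129). In slc24a5 crispants it was -0.3925 (-1.55 to 0.756), -0.496 (-1.14 to 0.0834) and -0.141 points (-0.282 to -0.00492) in the same order. The part of depth in these differences was not tested.

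The adult intestine held the most. Its share was 604 of 6553 lymphocytes with the early label (9.22%, 8.53 to 9.94), against 177 of 5420 with the late label (3.27%, 2.81 to 3.77), a difference of 5.95 points (5.09 to 6.81). Chosen anew after thinning to 1000 UMIs, the cells were 235 of 3808 (6.17%) and 40 of 3916 (1.02%), a difference of 5.15 points. The thymus had 11 of 2619 with the early (0.420%) and 6 of 1007 with the late label (0.596%), the TLN 3 of 195 and 0 of 152, and the kidney marrow 3 of 1224 (0.245%) and 3 of 593 (0.506%). The kidney marrow and thymus shares lay below the 1.39% of adult mfap4 cells with such a UMI (7 of 504 cells). The larval shares with the mid and late label at 6 dpf lay below the 1.28% of larval mfap4 cells (4 of 313, 0.349 to 3.24). That interval also holds the early-labelled 6 dpf share of 2.29%. The mfap4 rate was the highest of the control rates. The thymus shares and the late kidney marrow share were above the 0.0735% of adult erythroid cells and the 0.258% of adult mpx cells. The kidney marrow share with the early label was no higher than the 0.258% of mpx cells. Whether these shares exceed background was not tested, and rorc in the thymic cells is given below. Both intestinal libraries stood above every other library's share except the larval 10 dpf libraries with the early and mid label and the untreated rag1 crispants, and the early intestine stood above all of them.

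**Figure D1:**
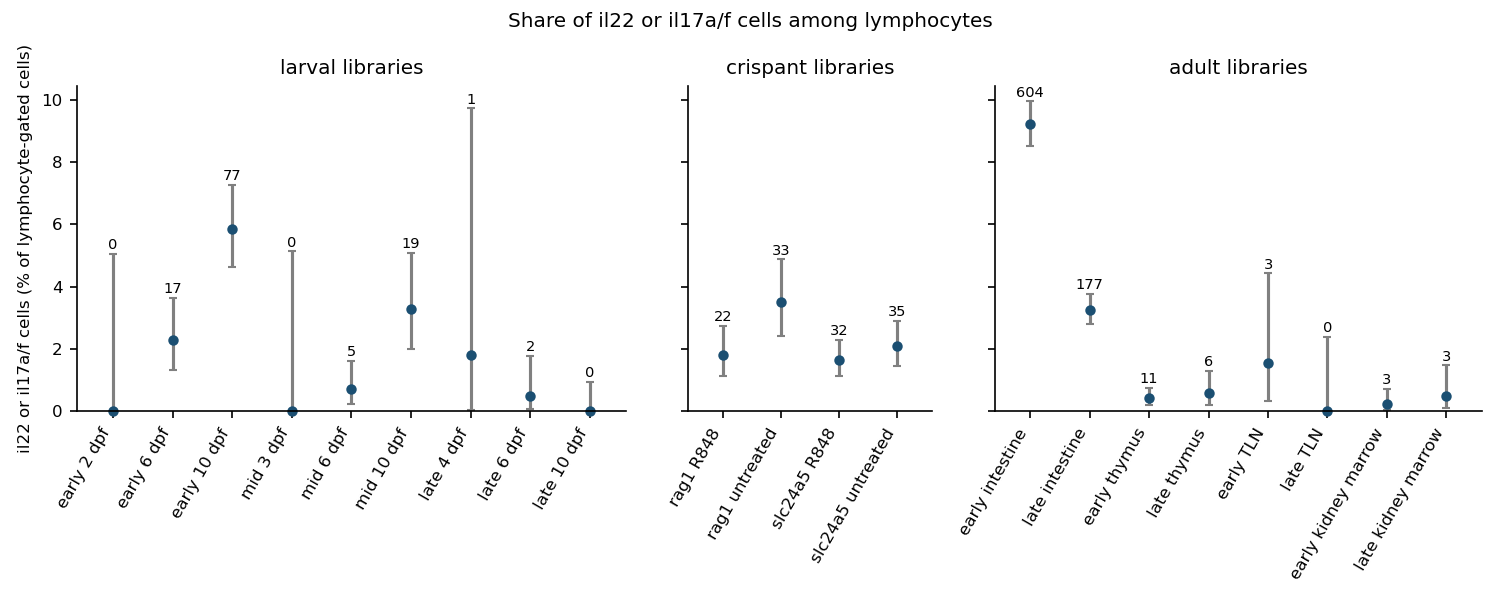
Share of gated lymphocytes that carried il22 or il17a/f RNA, in percent, for each library of larvae, crispants and adult tissues. Points are shares, bars are exact 95% intervals for counting error, and the counts of such cells stand beside them. The early-labelled adult intestine (9.22%) lies above all other libraries, and the early label lies above the mid and late labels in larvae at 6 and 10 dpf.

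The cytokines themselves, by which the cells were chosen, differed by set. Among the 1050 lymphocytes, 201 had il22 alone, 750 il17a/f alone and 99 both. In larvae the split was 34 with il22 alone, 80 with il17a/f alone and 7 with both, in crispants 58, 61 and 3, in the early-labelled intestine 76, 442 and 86, and in the late-labelled intestine 20, 154 and 3. Interleukin 22 was thus found in 61 of 122 crispant cells, in 33.9% of larval and in 24.5% of adult cells. The gene il17a/f3 was found in 41.8% of crispant, 43.0% of larval and 80.5% of adult cells, and il17a/f1 in 9.02% to 26.4% of cells of a set. The gene il17a/f2 was found in 15 of the 1050.

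Most larval and crispant cells were called on little RNA. A single cytokine UMI stood behind 52.1% of larval and 56.6% of crispant cells, against 25.3% of adult cells. In the intestine it stood behind 19.2% of early-labelled and 41.8% of late-labelled cells, whose median was 4 and 2 cytokine UMIs, and the highest cell, with the early label, had 73. Summed UMIs were 806 of il22, 3104 of il17a/f3 and 101 of il17a/f1 in the early intestine, against 47, 456 and 32 in the late intestine. Cells just outside the threshold have none and are the other lymphocytes. At 1 UMI the members were still unlike those: rorc was found in 68.3% of larval, 59.4% of crispant and 46.3% of intestinal cells with 1 cytokine UMI.

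**Figure D2:**
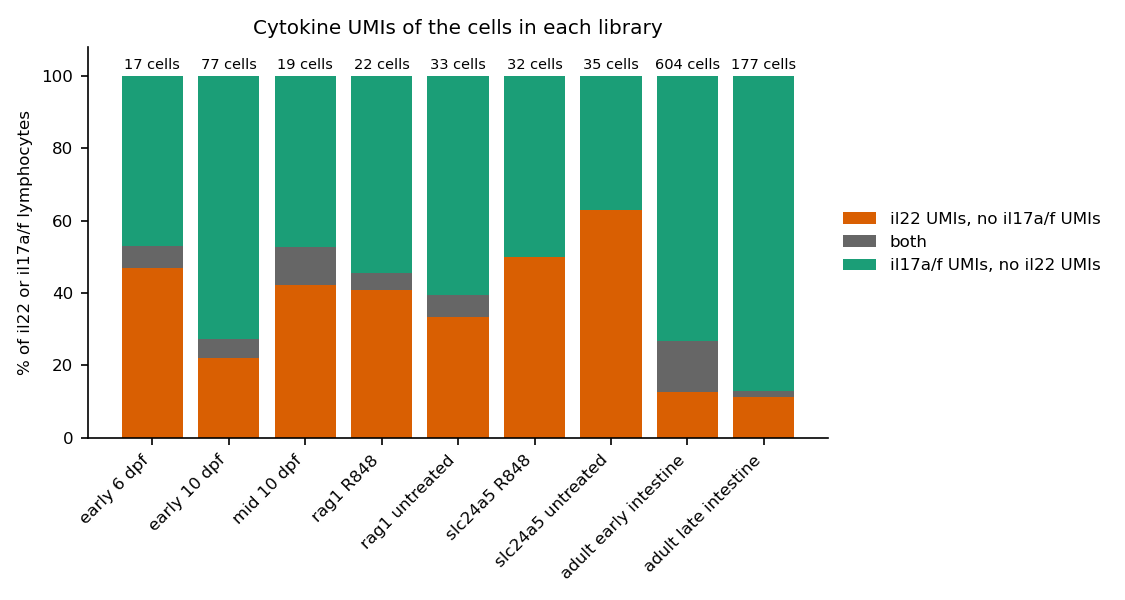
Share of il22/il17 lymphocytes (percent, stacked bars) with il22 alone, both, and il17a/f alone, in the 9 libraries with 17 or more such cells, whose number stands above each bar. The part with il17a/f alone is the largest in both intestinal libraries and in larvae at 10 dpf with the early label (56 of 77). It is also the largest in untreated (20 of 33) and treated rag1 crispants (12 of 22). In larvae at 10 dpf with the mid label it holds 9 cells against 8 with il22 alone. The parts are equal in early 6 dpf larvae (8 each) and treated slc24a5 crispants (16 each). In untreated slc24a5 crispants 22 of 35 cells had il22 alone.

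Where the excluded cells went bears on what the rule leaves in. Of 1631 kept cells with a cytokine UMI of this kind, 448 were left out, 207 of them for il4 or il13, 112 for mpx, 66 for foxp3a, 65 for mfap4 and 44 for haemoglobin, with overlaps. In the early intestine 103 of 730 such cells carried il4 or il13 as well, and in the late intestine 23 of 205. In the thymus it was 24 of 40 with the early and 18 of 25 with the late label. In the early TLN it was 9 of 22. In kidney marrow none carried il4 or il13, and most exclusions were for mpx, 20 of 51 with the early and 66 of 94 with the late label. Co-detection with type 2 cytokines thus took a larger part of the cytokine cells in thymus and TLN than in intestine.

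In larvae the il22/il17 lymphocytes carried the RNA of rorc, of the interleukin 23 receptor gene il23r, of the chemokine ligand gene ccl20a.3 and of nitr4a, nitr5 and nitr9 (members of the NITR family of immune-type receptors found in fish) at higher levels than other lymphocytes of the same library. The fit had 3 libraries (early label at 6 and 10 dpf, mid label at 10 dpf; 17, 77 and 19 cells) with the library as a block, and called 176 genes higher and 417 lower of 10424 tested at an adjusted p below 0.05. That is 1.69% and 4.0% of genes. Of 22 type 3 genes tested 8 were higher and 1 was lower, with a median log2 difference of 1.09 against -0.15 over all genes.

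The transcription factor rorc had 197, 282 and 463 CPM in the il22/il17 lymphocytes of the early 6 dpf, early 10 dpf and mid 10 dpf libraries, against 40.8, 78.6 and 39.7 CPM in other lymphocytes. The groups did not overlap, and the log2 fold change was 2.29 ± 0.27 (SE; edgeR adjusted p = 3.9e-15). The receptor subunit il23r had 175, 245 and 109 CPM against 27.5, 32.6 and 22.9 CPM, again without overlap (log2 2.42 ± 0.29, adjusted p = 1.84e-14). The ligand of the chemokine receptor CCR6, ccl20a.3, had 2102, 3623 and 7489 CPM against 144, 504 and 617 CPM (log2 3.19 ± 0.21). All 3 genes stood higher in each of the libraries and kept their calls in all 12 alternatives run.

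Among surface receptors, nitr9 had 60.1, 60.8 and 36.4 CPM in il22/il17 lymphocytes, against 4.86, 6.17 and 4.66 CPM in other lymphocytes (log2 3.08 ± 0.46). The related nitr4a (log2 2.89 ± 0.32) and nitr5 (2.47 ± 0.30) were higher too. The survival receptor il7r was at 180 against 33.7 CPM (log2 1.84 ± 0.30), and traf3ip2l, a relative of the interleukin 17 receptor adaptor gene TRAF3IP2, at 91.4 against 12.8 CPM (2.80 ± 0.34). The co-repressor gene nrip1a was at 114 against 16.8 CPM (2.59 ± 0.31). The chemokine receptor ccr6a was at 22.7 against 3.58 CPM (2.66 ± 0.66, adjusted p = 0.0024), a call lost without the early 10 dpf library (adjusted p = 0.13) and without the mid 10 dpf library (0.065). The second CCR6 gene, ccr6b, did not pass (log2 1.57, adjusted p = 0.20). Interleukin 26, a cytokine of the il22 family, had 37 UMIs in 9 of these lymphocytes, 54.1% of them in 1 cell, and 3 UMIs in all other lymphocytes of the fit.

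The tumour necrosis factor genes were higher as well: tnfa at 56.2 against 12.1 CPM (log2 1.98 ± 0.40), lta, which encodes lymphotoxin alpha, at 71.9 against 32.1 CPM (1.34 ± 0.31) and tnfb at 321 against 165 CPM (1.13 ± 0.25). These 3 calls were lost without the mid 10 dpf library, at adjusted p of 0.55, 0.24 and 0.28, and that of lta also without the early 6 dpf library (0.062). With at least 2 cytokine UMIs a cell, tnfb turned to -0.008 on the log2 scale. Neither lta nor tnfb was higher in all 3 libraries. The il12a gene was called too, but 57.0% of its UMIs lay in 1 cell, and it turned to -0.29 on the log2 scale without that library. Of 22 cell cycle genes tested 8 were higher and none lower (median log2 1.07), and their summed level was 2237 CPM against 886 CPM. The proliferation marker mki67 was at 27.3, 136 and 208 CPM, against 45, 26.5 and 44.5 CPM in other lymphocytes, so that the early 6 dpf library ran the other way (log2 1.42 ± 0.30). Its call was lost without the early 10 dpf library (adjusted p = 0.40) and without the mid 10 dpf library (0.11).

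Genes of other lymphocyte programmes were lower in the larval cells. Of 11 type 1 genes tested 5 were lower and none higher. The transcription factors tbx21 and eomesa and the killer gene nkl.1 had no UMI in il22/il17 lymphocytes and were at least 3.56-fold, 3.26-fold and 4.28-fold lower, against a floor of 3 counts over the class. The type 2 factor gata3 had 0, 2.21 and 46.8 CPM, against 37.8, 39.7 and 47.8 CPM in other lymphocytes (log2 -2.33 ± 0.48). The mid library differed little, and without the early 10 dpf library this call was lost (adjusted p = 0.55). The T-lineage factor bcl11ba was at 7.03 against 44.0 CPM (-2.42 ± 0.50), also lost without that library (0.34), and the chemokine receptor gene cxcr3.2 at 7.03 against 46.6 CPM (-2.91 ± 0.49). The growth factor csf3b was at 14.1 against 130 CPM (-3.54 ± 0.38), and prdm1a, which encodes a transcriptional repressor, had no UMI (at least 16.5-fold lower).

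Markers of other cell types moved with this comparison. Of 9 macrophage genes tested 8 were lower in il22/il17 lymphocytes (110 CPM in sum against 749 CPM), of 6 neutrophil genes 2 (180 against 409 CPM), of 10 HSPC genes 3 (152 against 280 CPM), and of 5 epithelial genes 3 (24.2 against 121 CPM). The other lymphocytes of the gate thus held more RNA of these cells, and its part in the calls was not tested. T-cell receptor constant regions were found in 35 of 121 larval il22/il17 lymphocytes (28.9%) and in 18.3% of other lymphocytes, while erythroid cells showed them in 3.05%. Shares of both classes pool all larval libraries, and label and age were mixed differently in each. Of the 35 cells, 34 had the alpha or beta chain. No larval cell had a cd4-1 or cd8a UMI. The main fit called 593 genes in all, and a fit without the library as a block called 151. Fits without the early 10 dpf, the mid 10 dpf or the early 6 dpf library called 158, 303 and 873. These are totals of each fit, not counts of the 593 that were kept. DESeq2 called 74 higher and 106 lower.

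In crispants the il22/il17 lymphocytes had higher levels of rorc, il23r and ccl20a.3 than other lymphocytes, and of the cytokine and activation genes counted next. Over 4 libraries with the library as a block, 315 genes were higher and 651 lower of 14951 tested (2.11% and 4.35%). With size factors by the relative log method the split was 422 higher and 471 lower, with DESeq2 it was 340 and 305, and the median of all genes moved by 0.19 from -0.23, so changes are read relative to that. Of 24 type 3 genes tested 10 were higher and 1 lower (median 1.49), and of 34 activation genes 17 were higher and 1 lower (median 0.83). Of 24 cytokine genes 8 were higher and 1 lower. Without the library as a block 269 genes were called in all.

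The gene rorc had 1106, 256, 220 and 209 CPM in R848-treated slc24a5, R848-treated rag1, untreated slc24a5 and untreated rag1 crispants, against 236, 82.8, 79.0 and 40.0 CPM in other lymphocytes of the same libraries. Within every library it was higher, and the treated slc24a5 library was the highest of both classes (log2 1.57 ± 0.22, adjusted p = 4.0e-11). In the same order il23r had 331, 76.8, 160 and 341 CPM, against 18.4, 15.4, 19.7 and 28.9 CPM (log2 2.96 ± 0.28), with no overlap. For ccl20a.3 the levels were 4338, 506, 1204 and 1190 CPM, against 155, 196, 94.1 and 63.9 CPM (log2 3.24 ± 0.18), again with no overlap. Of the other type 3 genes, sox13, a factor of gamma delta T cells in mice, was at 57.0 against 16.4 CPM (1.59 ± 0.38), a call lost without treated rag1 crispants (adjusted p = 0.32). The il7r gene was at 421 against 86.8 CPM (1.59 ± 0.23). For nitr5 it was 370 against 52.1 CPM (1.98 ± 0.26), although treated rag1 crispants ran the other way, at 19.2 against 64.4 CPM. Neither ccr6a (log2 2.04, adjusted p = 0.12) nor ccr6b (2.82, 0.17) passed.

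The subunit genes of interleukin 12 were among the largest differences. The gene il12a, for the p35 chain, had 740, 608, 451 and 201 CPM in treated slc24a5, treated rag1, untreated slc24a5 and untreated rag1 crispants, against 9.77, 10.7, 32.5 and 35.5 CPM in other lymphocytes (log2 4.21 ± 0.25, adjusted p = 8.0e-59). The gene il12bb, for a p40 chain that interleukin 12 shares with interleukin 23 in mammals, had 923, 1588, 257 and 735 CPM, against 32.7, 52.7, 40.1 and 37.0 CPM (log2 3.84 ± 0.21). Both stood apart from other lymphocytes in all 4 libraries. Lymphotoxin alpha (lta) was at 555 against 41.0 CPM (3.49 ± 0.22), tnfb at 812 against 79.7 CPM (2.94 ± 0.20) and tnfa at 58.8 against 4.95 CPM (2.98 ± 0.48). The unnamed gene CABZ01081490.1 had the highest fold change among genes called higher (2371 against 64.2 CPM, 4.80 ± 0.17). Genes of lymphocyte activation followed: irf4b (2.73 ± 0.32), irf4a (2.26 ± 0.38), both transcription factors induced by receptor signals, the phosphatase dusp2 (2.44 ± 0.20) and the co-stimulatory receptor tnfrsf9b (2.24 ± 0.18).

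These cytokines were not spread evenly over the cells. Of the 122 crispant lymphocytes, 41 had a UMI of il12a or il12bb: 6 of 32 and 9 of 22 in treated slc24a5 and rag1 crispants, and 18 of 35 and 8 of 33 in untreated ones. This split was made after the values were seen and is a description. Of the 41 cells, 82.9% had il22 (34 cells), 75.6% lta, 65.9% tnfb and 63.4% a T-cell receptor constant region. Of the other 81, 27 had il22, while 4.94% had lta, 8.64% tnfb and 38.3% a constant region. The gene rorc was found in 58.5% of the 41 and 58.0% of the 81, and median UMIs were 9992 and 5895. By cytokine, il12a was found in 26 of 58 cells with il22 alone (44.8%) and 6 of 61 with il17a/f alone (9.84%), il12bb in 44.8% and 1.64%, and lta in 55.2% and 3.28%. The NITR gene nitr5 ran the other way, in 17.2% of il22 cells and 55.7% of il17a/f cells. In larvae il12a was found in 15 of 121 cells (12.4%) and lta in 19.8%, and in the adult intestine il12a in 8 of 781 (1.02%).

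Lower in crispant il22/il17 lymphocytes were bcl11ba (9.65 against 57.5 CPM, log2 -2.67 ± 0.46) and cxcr3.2 (11.4 against 52.7 CPM, -2.64 ± 0.44). The cytotoxic gene gzma had no UMI (at least 9.48-fold lower), as had the adhesion gene ncam1a (10.2-fold) and the oxysterol receptor gene gpr183b (6.25-fold). The recombinase gene rag1 had no UMI either, against 1151 UMIs in other lymphocytes (at least 8.04-fold lower). Macrophage markers were lower for 9 of 14 genes tested (367 CPM in sum against 1354 CPM), HSPC markers for 7 of 12 (214 against 566 CPM) and neutrophil markers for 5 of 9 (252 against 503 CPM), and their part in the calls was not tested. Of 23 cell cycle genes none passed in either direction (1534 against 1312 CPM in sum). T-cell receptor constant regions were found in 57 of 122 cells (46.7%), but erythroid cells showed them in 11.3% here. That erythroid share is over all crispant libraries. By library they were found in 22.7% of treated and 69.7% of untreated rag1 crispant cells, and in 46.9% of treated and 40.0% of untreated slc24a5 crispant cells. These shares rest on 22, 33, 32 and 35 cells, with median UMIs of 5144, 11184, 3395 and 9196 in that order. The part of depth in them was not tested, and they are not set against other lymphocytes of the same libraries. No cell had a cd4-1 or cd8a UMI.

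In the adult intestine, the il22/il17 lymphocytes had more RNA of type 3 genes and also of gata3 than other intestinal lymphocytes. The fit had the early and the late library, with 604 and 177 cells against 5949 and 5243, and 1 residual degree of freedom. It called 871 genes higher and 1041 lower of 15167 (5.74% and 6.86%); without the library as a block 60 were higher and 18 lower, and DESeq2 called 502 higher and 393 lower. Of 24 type 3 genes tested 10 were higher and 3 lower, with a median log2 difference of 0.25 against -0.03 over all genes. Median UMIs were 7262 and 9628 in early and late il22/il17 lymphocytes, against 3668 and 4385 in other lymphocytes.

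The gene rorc had 475 and 472 CPM in early- and late-labelled cells, against 127 and 75.7 CPM in other lymphocytes (log2 2.53 ± 0.16, adjusted p = 3.4e-07). The gene gata3 had 194 and 221 CPM, against 14.8 and 11.9 CPM (4.22 ± 0.18, adjusted p = 7.1e-09). For il23r the levels were 178 and 148 CPM, against 18.8 and 19.6 CPM (3.34 ± 0.19). In all 3 the classes did not overlap. The early and late il22/il17 lymphocytes lay close together, while rorc in other lymphocytes was at 127 CPM early and 75.7 CPM late. Without the library as a block rorc was no longer called (adjusted p = 0.15), while il23r and gata3 were.

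Genes of homing went both ways, and those named next were higher. The chemokine receptors ccr6b (29.8 against 0.755 CPM, log2 5.56 ± 0.29) and ccr6a (27.3 against 1.66 CPM, 4.12 ± 0.28) were higher, and so was their ligand gene ccl20a.3, with 3770 and 1026 CPM in early and late cells, against 290 and 99.1 CPM. The oxysterol receptor genes gpr183b (81.6 against 10.0 CPM, 3.26 ± 0.19) and gpr183a (107 against 30.3 CPM, 2.18 ± 0.17) were higher, as was the chemokine gene ccl34b.4 (710 and 535 CPM against 156 and 88.8 CPM, 2.64 ± 0.14). The leukotriene receptor gene cysltr1 was at 146 against 4.60 CPM (5.28 ± 0.19), and slc10a1, which encodes a bile acid transporter in mammals, at 30.0 against 0.887 CPM (5.11 ± 0.32). Of 28 homing genes tested 9 were higher and 4 lower, while 5.74% and 6.86% of all genes were. Their median log2 was -0.15, against -0.03 over all genes.

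Cytokine and co-stimulation genes in the intestine included tnfa (250 and 123 CPM in early and late cells, against 68.6 and 38.5 CPM, log2 2.03 ± 0.16). Also higher were tnfsf11, which encodes the ligand RANKL (30.6 against 8.10 CPM, 2.31 ± 0.24), and the T-cell co-stimulatory receptor gene cd28 (56.5 against 15.7 CPM, 2.23 ± 0.25). Interleukin 26 had 291 UMIs in 41 of the 604 early-labelled cells and none in the 177 late-labelled ones. Other lymphocytes had 31 UMIs with the early label and none with the late label. Lower were lta (27.3 against 61.9 CPM, -0.82 ± 0.21) and the T-cell factor tcf7 (72.7 against 185 CPM, -1.05 ± 0.16). In larvae and crispants lta was higher, so its direction was opposite there; the 3 sets were not tested against each other. The same holds for zbtb16a, the PLZF gene of innate-like lymphocytes, which was higher in the intestine (log2 0.94 ± 0.26) and lower in larvae (-1.31) and crispants (-1.57).

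Of 19 type 1 genes tested in the intestine 9 were lower and 1 higher, with a median log2 of -1.92. The interleukin 12 receptor gene il12rb2 had 4.15 and 10.6 CPM in early and late cells, against 51.1 and 66.3 CPM (-2.89 ± 0.25). The granzyme gene gzma was at 2.69 against 25.2 CPM (-2.84 ± 0.35), and cd8a at 9.25 against 37.0 CPM (-1.99 ± 0.41). The factor gata2a had no UMI (at least 26.3-fold lower). Epithelial markers were lower for 6 of 8 genes (84.7 CPM in sum against 1881 CPM); fabp2, an enterocyte fatty acid binding protein gene, had 2.08 and 116 CPM in early and late cells, against 46.7 and 1245 CPM. B-cell markers were lower for 3 of 7 (11.8 against 148 CPM). The part of these cells' RNA in the calls was not tested. T-cell receptor constant regions were found in 234 of 781 cells (30.0%), in 29.0% of other lymphocytes and in 0.262% of adult erythroid cells. They were also found in 0.467% of adult cells with at least 3 mpx UMIs and 3.77% of those with at least 3 mfap4 UMIs. These control shares are over all adult libraries and are no measure of the intestine alone. There 7932 of 8011 early and 6168 of 6172 late kept cells had less than 5% haemoglobin UMIs. The shares in il22/il17 and other lymphocytes are not at like depth. Median UMIs were 7262 and 9628 in early and late il22/il17 lymphocytes, against 3668 and 4385 in other lymphocytes. Like shares therefore do not mean like levels of receptor RNA.

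**Figure D3:**
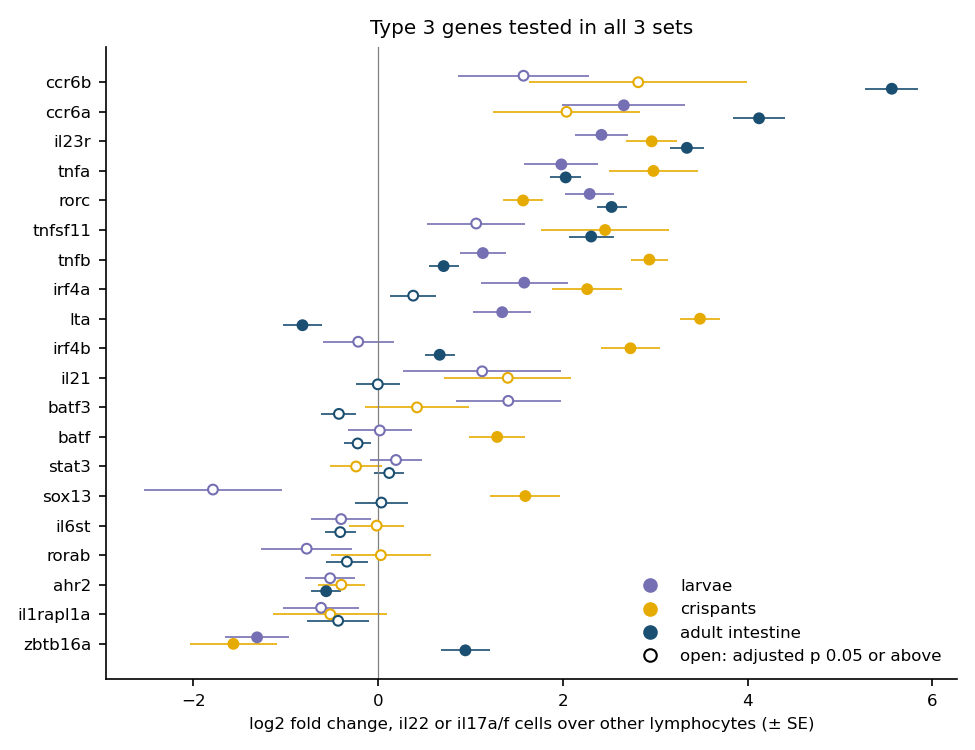
Log2 fold change of il22/il17 lymphocytes over other lymphocytes, with the SE of the fit, for the 20 type 3 genes tested in larvae, crispants and the adult intestine with UMIs in both classes. Filled points passed an adjusted p below 0.05 and open points did not. The genes il23r, tnfa, rorc and tnfb were called higher in all 3 sets, tnfb in larvae not with at least 2 cytokine UMIs, while lta and zbtb16a lay on opposite sides of 0 in the intestine and the other sets.

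The intestinal cells fell into classes by rorc and gata3. These classes were formed after the values were seen and are described only. Of 781 cells, 258 had rorc without gata3, 311 gata3 without rorc, 114 both and 98 neither. Cells with il22 had rorc and almost no gata3: in those with il22 alone rorc was found in 73 of 96 (76.0%) and gata3 in 1 of 96 (1.04%), and in those with il22 and il17a/f in 86 of 89 (96.6%) and 2 of 89 (2.25%). Of the cells with il17a/f alone, pooled over both labels, 213 of 596 had rorc (35.7%, 31.9 to 39.7) and 422 had gata3 (70.8%, 67.0 to 74.4). The split was alike with both labels, with gata3 in 72.6% of early-labelled and 65.6% of late-labelled cells with il17a/f alone. In larvae gata3 was found in 0 of 34 cells with il22 alone and 6 of 80 with il17a/f alone (7.5%), and in crispants in 0 of 58 and 7 of 61 (11.5%). Single genes mattered too: of 556 intestinal cells with il17a/f3 and neither il22 nor il17a/f1, 415 had gata3 (74.6%), while of 43 with il17a/f1 and no il17a/f3 only 1 did.

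**Figure D4:**
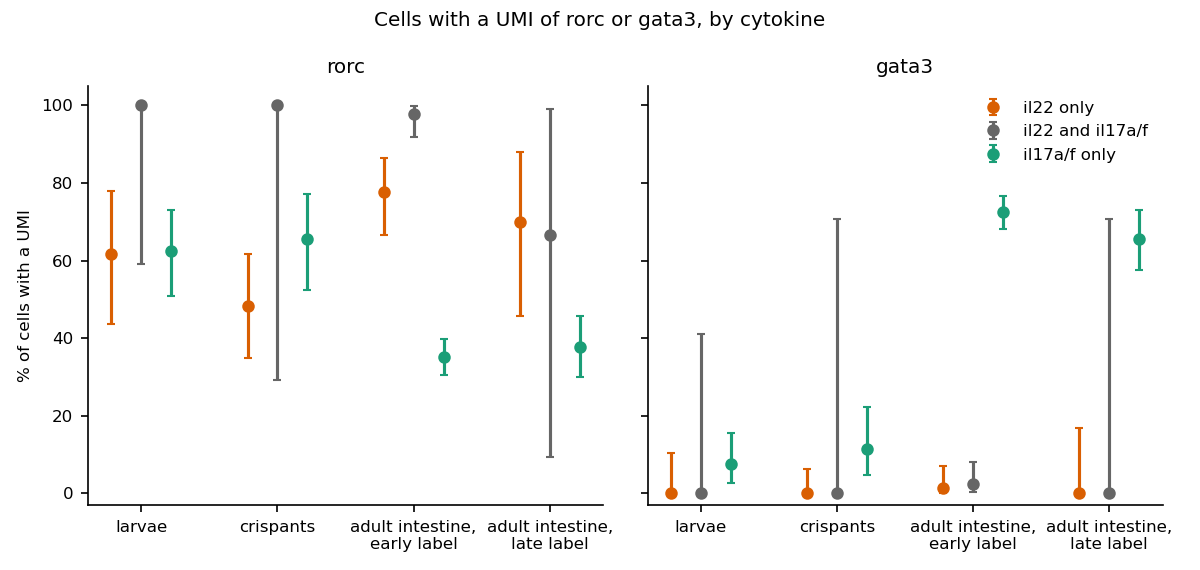
Share of il22/il17 lymphocytes with a UMI of rorc or of gata3, in percent with exact 95% intervals, by the cytokine they carried, with the adult intestine split by label. Larvae are pooled over labels and ages, and crispants over genotypes and treatment. The intervals cover counting error only. In larvae and crispants rorc lies at 48.3% or more and gata3 at 11.5% or less in every cytokine class, while in the adult intestine gata3 lies at 72.6% and 65.6% in early- and late-labelled cells with il17a/f alone and near 0 in cells with il22.

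Receptors differed between these intestinal classes. The gene il23r was found in 180 of 258 cells with rorc alone (69.8%), in 88 of 114 with both factors (77.2%) and in 10 of 311 with gata3 alone (3.22%). Receptor ccr6b was found in 51 of 114 cells with both factors (44.7%), against 1.94% of cells with rorc alone and 2.89% of cells with gata3 alone. Interleukin 22 was found in 157 of 258 cells with rorc alone (60.9%) and in 1 of 311 with gata3 alone, and il26 in 15.5% and 0. Cells with gata3 alone had il17a/f3 in 99.4%, ccr6a in 25.1%, cd28 in 26.4% and gamma or delta T-cell receptor chains in 16.7%, with alpha or beta chains in 7.07%. Cells with rorc alone had the alpha or beta chains in 34.9% and gamma or delta chains in 2.71%. Taken apart by label, il22 was found in 62.9% of early- and 47.1% of late-labelled cells with rorc alone, il23r in 67.0% and 88.2%, and ccr6b in 47.3% and 40.0% of early- and late-labelled cells with both factors. In cells with gata3 alone, cd28 was found in 21.6% of early- and 45.9% of late-labelled cells.

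The intestinal cells with il22 alone (76 early, 20 late) were tested against those with il17a/f alone (442 early, 154 late). A cell counted as having one cytokine alone may carry the other below detection. Of 6990 genes tested 180 were higher and 199 lower (2.58% and 2.85%), with 1 residual degree of freedom; without the library as a block edgeR called none, with 611 genes at an unadjusted p below 0.05, and DESeq2 with the block called 104 higher and 62 lower. Among genes higher in the il22 cells, nitr9 had 678 and 248 CPM in early- and late-labelled il22 cells, against 67.1 and 34 CPM in il17a/f cells (log2 3.15 ± 0.27, adjusted p = 3.1e-05), and nitr5 had 346 and 326 CPM against 65.9 and 92.8 CPM (2.12 ± 0.27). The retinol carrier gene rbp4 had 1338 and 478 CPM against 104 and 58.2 CPM (3.4 ± 0.26). The genes ccl20a.3 (5511 and 1973 CPM against 2144 and 856 CPM, 1.28 ± 0.18), tnfrsf9a (1.72 ± 0.24), dusp5 (2.31 ± 0.26) and fcer1g, for a signalling adaptor (2.04 ± 0.23), were higher as well. For tnfa the fold change was 1.22 ± 0.30, with a call lost in cells of at least 2000 UMIs (adjusted p = 0.12).

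Higher in the il17a/f cells was a group led by gata3, ccl34b.4, gpr183b and ccr6b. The gene ccl34b.4 had 9.80 and 4.87 CPM in early and late il22 cells, against 1004 and 610 CPM in il17a/f cells (log2 -6.69 ± 0.37, adjusted p = 7.6e-07). For gata3 there was 1 UMI in il22 cells and 1346 in il17a/f cells (1.22 against 267 CPM), and for gpr183b 1 and 545. The gene ccr6b had no UMI in il22 cells and 200 in il17a/f cells (at least 10.8-fold lower), and hapln1b, for a hyaluronan link protein, 0 and 593 (at least 32.1-fold lower). The genes ccr6a (4.89 against 33.6 CPM, -2.67 ± 0.68) and cd28 (17.1 against 68.2 CPM, -1.94 ± 0.41) were lower in il22 cells, calls lost in cells of at least 2000 UMIs (adjusted p = 0.12 and 0.058). The invariant chain gene cd74a was lower too, at 268 and 862 CPM against 1339 and 2014 CPM (-1.78 ± 0.25). Of 10 macrophage-list genes tested 6 were lower, cd74a, cd74b, mhc2a, spi1b, grn1 and grn2 (1208 CPM in sum over the list against 3466 CPM), and the part of macrophage RNA was not tested. By contrast rorc (log2 0.19, adjusted p = 0.85) and il23r (0.08, 0.93) did not pass. The il23r level was 160 and 136 CPM in il22 cells against 134 and 150 CPM in il17a/f cells, so the classes overlapped.

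**Figure D5:**
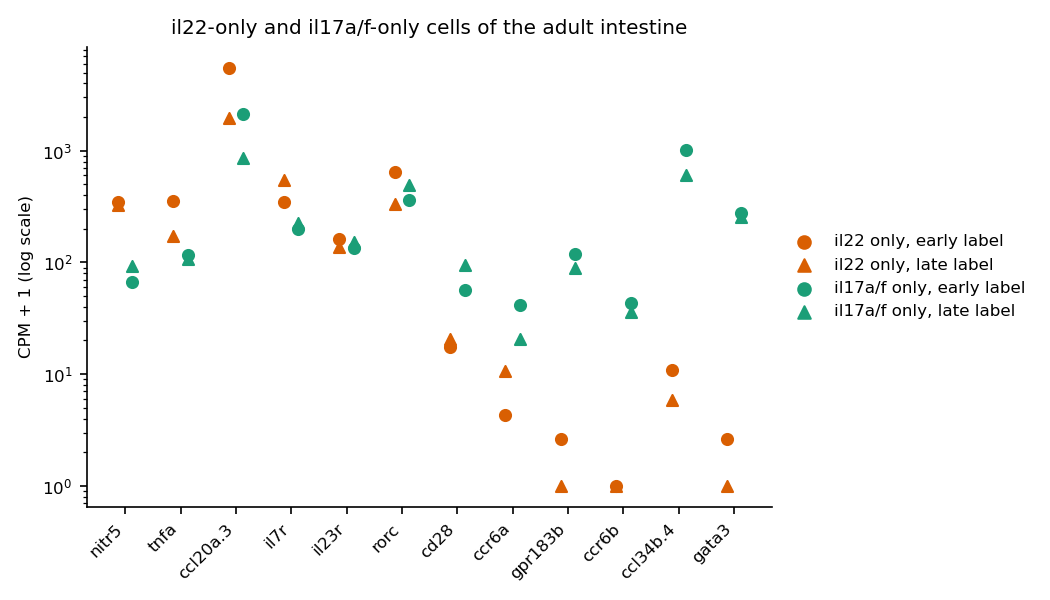
Level of 12 genes (CPM + 1, log axis) in intestinal lymphocytes with il22 alone and with il17a/f alone, with 1 point for the early and 1 for the late label in each class. The points of gata3, ccl34b.4 and ccr6b in il22 cells lie below those in il17a/f cells, nitr5 lies above, and rorc and il23r overlap.

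Against type 2 lymphocytes, the gated cells with il4 or il13 RNA, rorc and il23r were higher in crispants and in the intestine, while gata3 was lower in crispants and did not pass in the intestine. The sets were not tested against each other. In crispants 406 genes were higher and 474 lower of 5709 tested (7.11% and 8.3%), with 7 of 14 type 3 genes higher and 3 lower. The gene rorc was at 332 against 16.1 CPM (log2 3.83 ± 0.29, adjusted p = 1.9e-06), il23r at 230 against 14.1 CPM (3.53 ± 0.32) and lta at 555 against 3.97 CPM (6.78 ± 0.44). Lower in il22/il17 lymphocytes were gata3 (12.3 against 265 CPM, -4.57 ± 0.42) and zbtb16a (-3.88 ± 0.41). In the same direction, sox13 was at 57.0 against 178 CPM (-1.83 ± 0.41), a call lost without treated (adjusted p = 0.071) or untreated slc24a5 crispants (0.064). In treated rag1 crispants it ran the other way, at 166 against 133 CPM. The unnamed gene si:dkey-21e2.15 had 3 UMIs in il22/il17 lymphocytes and 134573 in type 2 cells, and gpr183b had 0 and 1188 (at least 89.5-fold lower). In the intestine gpr183b was found in 24.3% of il22/il17 lymphocytes.

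In the intestine, 22 genes were higher and 56 lower than in type 2 cells, of 8997 tested (0.245% and 0.622%), with 1 residual degree of freedom and adjusted p of 0.045 or just above. Higher were il23r (178 and 148 CPM in early and late cells, against 15.2 and 12.8 CPM; log2 3.47 ± 0.31), rorc (475 and 472 CPM against 73.2 and 41.0 CPM; 3.04 ± 0.33), nitr9 (258 and 57.8 CPM against 33.6 and 3.95 CPM; 3.27 ± 0.33) and the signalling adaptor gene tyrobp (122 and 114 CPM against 14.1 and 7.90 CPM; 3.4 ± 0.30). Lower were sox13 (9.96 and 9.02 CPM against 189 and 77.0 CPM; -3.77 ± 0.35) and zbtb16a (12.9 and 20.2 CPM against 125 and 98.7 CPM; -2.86 ± 0.31). The cytokine gene il11b had 1 UMI against 1127, and gata2a 0 against 103 (at least 59.4-fold lower). The gene gata3 did not pass, with 194 and 221 CPM in il22/il17 lymphocytes against 229 and 103 CPM in type 2 cells (log2 0.35 ± 0.36, adjusted p = 0.75). Epithelial markers summed to 83.1 CPM in il22/il17 lymphocytes and 12843 CPM in type 2 cells, and their part in these calls was not tested. Without the library as a block edgeR called no gene, with 982 at an unadjusted p below 0.05, and DESeq2 with the block called 277.

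R848 was compared with no treatment within the crispant il22/il17 lymphocytes, over both genotypes (32 and 22 treated against 35 and 33 untreated cells, with 1 residual degree of freedom). Of 3391 genes 21 were higher and 6 lower (0.619% and 0.177%). Of 12 type 3 genes tested none passed (median log2 0.83), and rorc was at 1106 and 256 CPM in treated slc24a5 and rag1 crispants, against 220 and 209 CPM in untreated ones (log2 1.21, adjusted p = 0.27). Of 9 type 1 genes tested 5 were higher (median 2.61). The tumour necrosis factor receptor gene tnfrsf18 had 958 and 1165 CPM in treated slc24a5 and rag1 crispants, against 110 and 114 CPM in untreated ones (3.09 ± 0.36, adjusted p = 0.0020). The chemokine gene ccl36.1 had 1775 and 3771 CPM against 248 and 175 CPM (3.48 ± 0.39), and ccl38.6 had 1725 and 1287 CPM against 317 and 151 CPM (2.61 ± 0.33).

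Granzyme genes were higher with R848 in a few cells. The gene gzm3.4 had 78 UMIs in treated cells, from 11 cells, and 1 UMI in untreated cells. Its neighbour in name gzm3.3 was at 98.6 and 352 CPM in treated slc24a5 and rag1 crispants, against 2.16 and 18.5 CPM in untreated ones (log2 4.37 ± 0.66, adjusted p = 0.011), a call lost with a gate of 4 lymphocyte UMIs (0.10). As near-identical copies may share reads, the granzyme 3 genes are uncertain one by one. The receptor gene csf2rb had 39 UMIs in 7 treated cells and none in untreated cells, at least 36.7-fold higher. The chemokine gene ccl34b.4 had 162 UMIs against 4, but 71.7% of them lay in 1 cell. The heat shock gene hspb1 was lower, at 91.6 and 57.6 CPM against 991 and 1695 CPM (-4.27 ± 0.44). Macrophage-list genes summed to 597 CPM in treated and 232 CPM in untreated cells, none of 5 passing, and their part was not tested.

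Between rag1 and slc24a5 crispants no gene passed, of 3391 tested (0.0% higher and 0.0% lower by edgeR's quasi-likelihood test). DESeq2 called 0 as well, and 123 genes had an unadjusted p below 0.05. For rorc, rag1 crispants had 256 and 209 CPM treated and untreated, against 1106 and 220 CPM in slc24a5 crispants. For ccl20a.3 they had 506 and 1190 CPM, against 4338 and 1204 CPM. The treated slc24a5 library was the highest for both genes, and the untreated libraries were close.

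Early and late label could be compared in the intestine only as 1 library against 1, with no test. Of 5327 genes with at least 50 UMIs, 68 were at 2-fold or more higher and 448 at 2-fold or more lower with the early label (1.28% and 8.41%, on CPM + 5), and 19 and 114 of these were so in other lymphocytes too. The early cells had il26 at 60.4 CPM, against 0 UMIs in late cells, and c1qtnf4, of the C1q and tumour necrosis factor related family, with 232 UMIs against 0. Both genes ran the same way in other lymphocytes. There c1qtnf4 had 58.0 CPM in early and 0.154 CPM in late cells, and il26 had 31 UMIs (1.09 CPM) in early and 0 in late cells. The stress gene ddit4 was at 336 against 46.2 CPM, and in other lymphocytes at 147 against 43.2 CPM. Lower with the early label was ccl35.1, at 17.4 against 334 CPM, although other lymphocytes ran the other way (307 against 97.3 CPM). Epithelial fabp2 was at 2.08 CPM in early and 116 CPM in late cells. Of 19 cell cycle genes 11 were lower (median log2 -1.18, against -0.31 over all genes), and of 19 type 3 genes 1, il26, was higher and none lower.

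Outside the intestine few adult cells met the rule and the gate, 26 in thymus, TLN and kidney marrow together. Of these, 16 had rorc (61.5%) and 6 had gata3 (23.1%). In the thymus rorc was found in 8 of 11 early-labelled and 5 of 6 late-labelled cells, against 8.24% and 10.4% of other thymic lymphocytes. T-cell receptor constant regions were found in 0 of the 11 and 4 of the 6. These cells also carried RNA of the macrophage and neutrophil marker lists. The macrophage list includes cd74a, cd74b and mhc2a, and its sums were not split by gene. By the rule these cells had no UMI of mpx or mfap4. Macrophage markers summed to 13777 CPM in the 20 cells of thymus and TLN, against 5330 CPM in all kept cells there, and to 5997 CPM in the 6 of kidney marrow, against 3929 CPM. Neutrophil markers summed to 9905 CPM in the 6 cells of kidney marrow, against 33137 CPM in all kept cells there. The part of this RNA in their choice was not tested.

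Of the 133 chosen cells below the lymphocyte gate, 31 had no leading marker list, and the others were led by markers of other cell types. The leading list was the one with the most genes detected, and lists ran from 7 genes (neural) to 16 (macrophage). Among all 133 cells, 17 had 1 UMI of a gate gene. In kidney marrow 41 of 47 chosen cells were below the gate, 24 of them with macrophage markers as the leading list and 17 with neutrophil markers. In kidney marrow il22 was found in 24 of 25 early- and 20 of 22 late-labelled chosen cells, mostly as 1 UMI (88.0% and 95.5% of cells with a single cytokine UMI). In crispants 58 cells lacked the gate, 25 of them led by neural and 5 by epithelial markers and 20 by none. In larvae they were 23, in intestine 9, and in thymus and TLN 1 each. These cells entered no comparison between classes.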

How the data were processed

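Labelled cells of 21 zebrafish libraries were measured by droplet single-cell RNA sequencing. The deposited matrices hold raw UMI counts per gene and barcode, made, per the file headers, with Cell Ranger 7.1.0 (early and mid larval), 7.0.1 (late larval), 8.0.1 (crispant) and 9.0.0 (adult); the build is GRCz11, per the submitters' processing notes. Kit versions were 3.1 for larval tracing and 4 for the others, per the labels' protocols. Larval, crispant and adult cells were counted and tested apart. No doublet caller was run; leaving out the 5% of cells with the most UMIs was an alternative. The members, marker lists and tests were chosen with earlier results of these data known.

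Shares have exact Clopper-Pearson 95% intervals, and a count of 0 was read as allowing 3 counts; both cover counting error only. For tests, UMI counts were summed per library and class and fitted by edgeR 4.0.16 (quasi-likelihood, TMM, library as a block, Benjamini-Hochberg adjustment, R 4.3.3, limma 3.58.1), with DESeq2 1.42.0 as an alternative. Both classes of a comparison come from the same library, and so from the same fish; R848 and genotype were blocked on each other. A class needed 20 cells in a library (15 in larvae, set after the counts were seen, since at 20 only 1 library was left). The 34 rule and gate genes were not tested. Nothing in the sources used here says how many fish a library pooled, so the spread between fish is not known. With the library as a block, p-values measure how the difference between classes varied over libraries. Those libraries were unlike in label, age, genotype or treatment. For R848 and genotype, p-values measure how the effect varied over the other factor. CPM is UMIs per 1000000 UMIs of the class, and folds without a test used CPM + 5. Named genes were up to 10 a direction by fold change with adjusted p below 0.05, at least 50 UMIs in the higher class and the same direction in every library, plus genes of the lists. The scripts were tested on simulated data. Work used Python 3.11.15, numpy 2.4.6, scipy 1.17.1, pandas 2.3.3 and matplotlib 3.10.9.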

Additional observations from a re-analysis of the deposited data

How the results depend on the processing

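Counts of genes called, over both directions, moved as follows. Without the replicate block, calls were 151 (larval against other lymphocytes, 593 with it), 269 (crispant, 966), 78 (adult, 1912), 468 (against type 2 cells in crispants, 880), 0 (against type 2 cells in adults, 78), 0 (il22 against il17a/f cells, 379) and 10 (R848, 27). DESeq2 called 180 in larvae, 895 in adults, 277 against adult type 2 cells, 166 for il22 against il17a/f cells and 14 for R848. With at least 2 cytokine UMIs, calls were 627 in crispants, 573 against crispant type 2 cells, 276 against adult type 2 cells and 245 for il22 against il17a/f cells. With at least 2000 UMIs they were 1274 in adults, 133 for il22 against il17a/f cells and 80 for R848. A gate of 4 UMIs gave 1106 in adults, 138 against adult type 2 cells and 11 for R848. With no filter on low counts they were 1220 against adult type 2 cells, 135 for R848 and 27 for rag1 against slc24a5. Without the 5% of cells with the most UMIs they were 799, 49 and 1, and at most 10% mitochondrial UMIs gave 134 against adult type 2 cells. Size factors by the relative log method gave 62 for R848. Leaving out 1 library gave 158 to 873 calls in larvae, 651 to 766 in crispants and 536 to 730 against crispant type 2 cells. The causes were not tested.

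Share differences moved with the setting and the denominator. Thinned to 1000 UMIs, early minus late at 6 dpf was -1.62, early minus mid at 10 dpf -0.487 and R848 minus untreated in rag1 crispants 0.520 points. Each of these thinned intervals included 0. Early minus late at 10 dpf was 2.81 points with at least 2 cytokine UMIs, 1.48 thinned, 1.01 over all kept cells and 1.99 over cells with little haemoglobin, and early minus mid was 0.257 over all kept cells. In the intestine, early minus late was 9.10 with at least 2000 UMIs, 4.73 over all kept cells and 4.80 over cells with little haemoglobin.

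Alternatives were followed only for called genes that met the naming rule or stood in the gene lists. For these, 4507 values kept direction and call, 994 lost the call and 9 reversed. The gene gata3 against adult type 2 cells, not called, reversed once. Without the 5% of cells with the most UMIs, log2 values turned to -0.61 for larval rrm2, -0.27, -0.083, -0.18 and -0.32 for adult top2a, aurkb, cdk1 and birc5a, -0.14 for gata3 against adult type 2 cells and -2.13 for stmn1a between il22 and il17a/f cells. Larval tnfb was -0.008 with at least 2 cytokine UMIs, larval il12a ranged from -0.295 to 2.268 when 1 library was left out, and crispant fosl1a 0.018 with a gate of 4 UMIs. Fits without 1 intestinal library had no residual degrees of freedom and were not run, and il22 against il17a/f cells in crispants could not be fitted because no library had 20 cells of both.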
